A study of Mus musculus with 52 samples.

Results

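The 44 mouse collagen genes with a single-gene probe set, of 22180 genes so represented on Affymetrix Mouse Gene 2.0 ST arrays, were followed through cultures of bone marrow stromal cells. They are the genes whose symbol has the form Col, a type number, a and a chain number, each represented by its probe set with the highest mean over all arrays. Of these, 41 passed a filter on low values (at least 4 of 52 arrays above 4.05, the median of the log2 table), as did 14911 genes in all. In 27 of the 41 every array lay above that median, and in 14 some arrays lay at or under it. Col4a3, Col6a4 and Col6a5 did not pass; the first pair stayed under 4.05 on all arrays, and Col6a5 exceeded it on 3, reaching 5.69.

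Marrow came from C57BL/6J females aged 8 weeks. Cells of 2 to 4 animals made a pool, and the numbers 12, 15, 19 and 20 in the titles are read here as 4 such pools, each with 1 array in each of 13 groups. Naive cultures were harvested before induction. All other cultures were switched 7 days after plating to medium with 12.5 µg/ml ascorbate, 8 mM β-glycerol phosphate, 10 nM dexamethasone and insulin, which favours bone formation, and were harvested after 1 or 4 days. They received vehicle (DMSO, 0.1%), Rosi (rosiglitazone, 100 nM, an agonist of the fat cell receptor PPARγ), LG268 (LG100268, 100 nM, an agonist of its partner RXR), TBT (the organotin tributyltin, 80 nM), TPhP (the flame retardant triphenyl phosphate) or MEHP (mono-2-ethylhexyl phthalate, a plasticizer metabolite). The doses of TPhP and MEHP are not given in the labels. Pools were whole marrow cultures, with no sort of the cells stated. The comparisons address how collagen expression changes during induction and which of these changes each chemical alters.

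Collagens are built from 3 chains wound into a triple helix. Fibrillar types (I, II, III, V, XI, XXIV, XXVII) form the fibrils of bone, cartilage and soft connective tissue, type I being the main protein of bone matrix. Type IV forms the sheet of basement membranes, which surround fat cells, muscle cells and vessels. Type VI forms beaded filaments around cells, types VIII and X form hexagonal nets, FACIT types (such as XII, XIV, XVI and XXII) decorate fibrils, and types XV and XVIII, the multiplexins, lie at the border of basement membrane and matrix. Chains are hydroxylated in the endoplasmic reticulum by enzymes that use ascorbate, then trimmed and crosslinked outside the cell.

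Type I collagen and most other fibrillar chains called at day 4 fell, while a pair of type IV chains and Col15a1 rose. With Rosi, TBT, TPhP and MEHP, both chains of type I, Col3a1, Col5a1, Col5a2 and Col11a1 fell (by 1.36, 0.97, 1.09 and 1.39 on the log2 scale for Col1a1), while Col4a1, Col4a2 and Col15a1 rose (by 2.64, 1.04, 1.65 and 1.49 for Col15a1). With LG268, Col4a1 and Col4a2 rose and no fibrillar chain was called. In all, 28 of the 41 genes tested were called in at least 1 of 13 comparisons and 13 in none. The same share over all genes was not counted, so the 28 are not read as a trait of collagens. With Rosi at day 4 alone, 21.3% of all genes tested rose and 27.7% fell. "Called", "rose" and "fell" mean an adjusted p under 0.05 in limma over 14911 genes, and a value with its SE is the difference of 2 group means, each over 4 arrays, on the log2 scale of the deposited table.

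**Figure D1:**
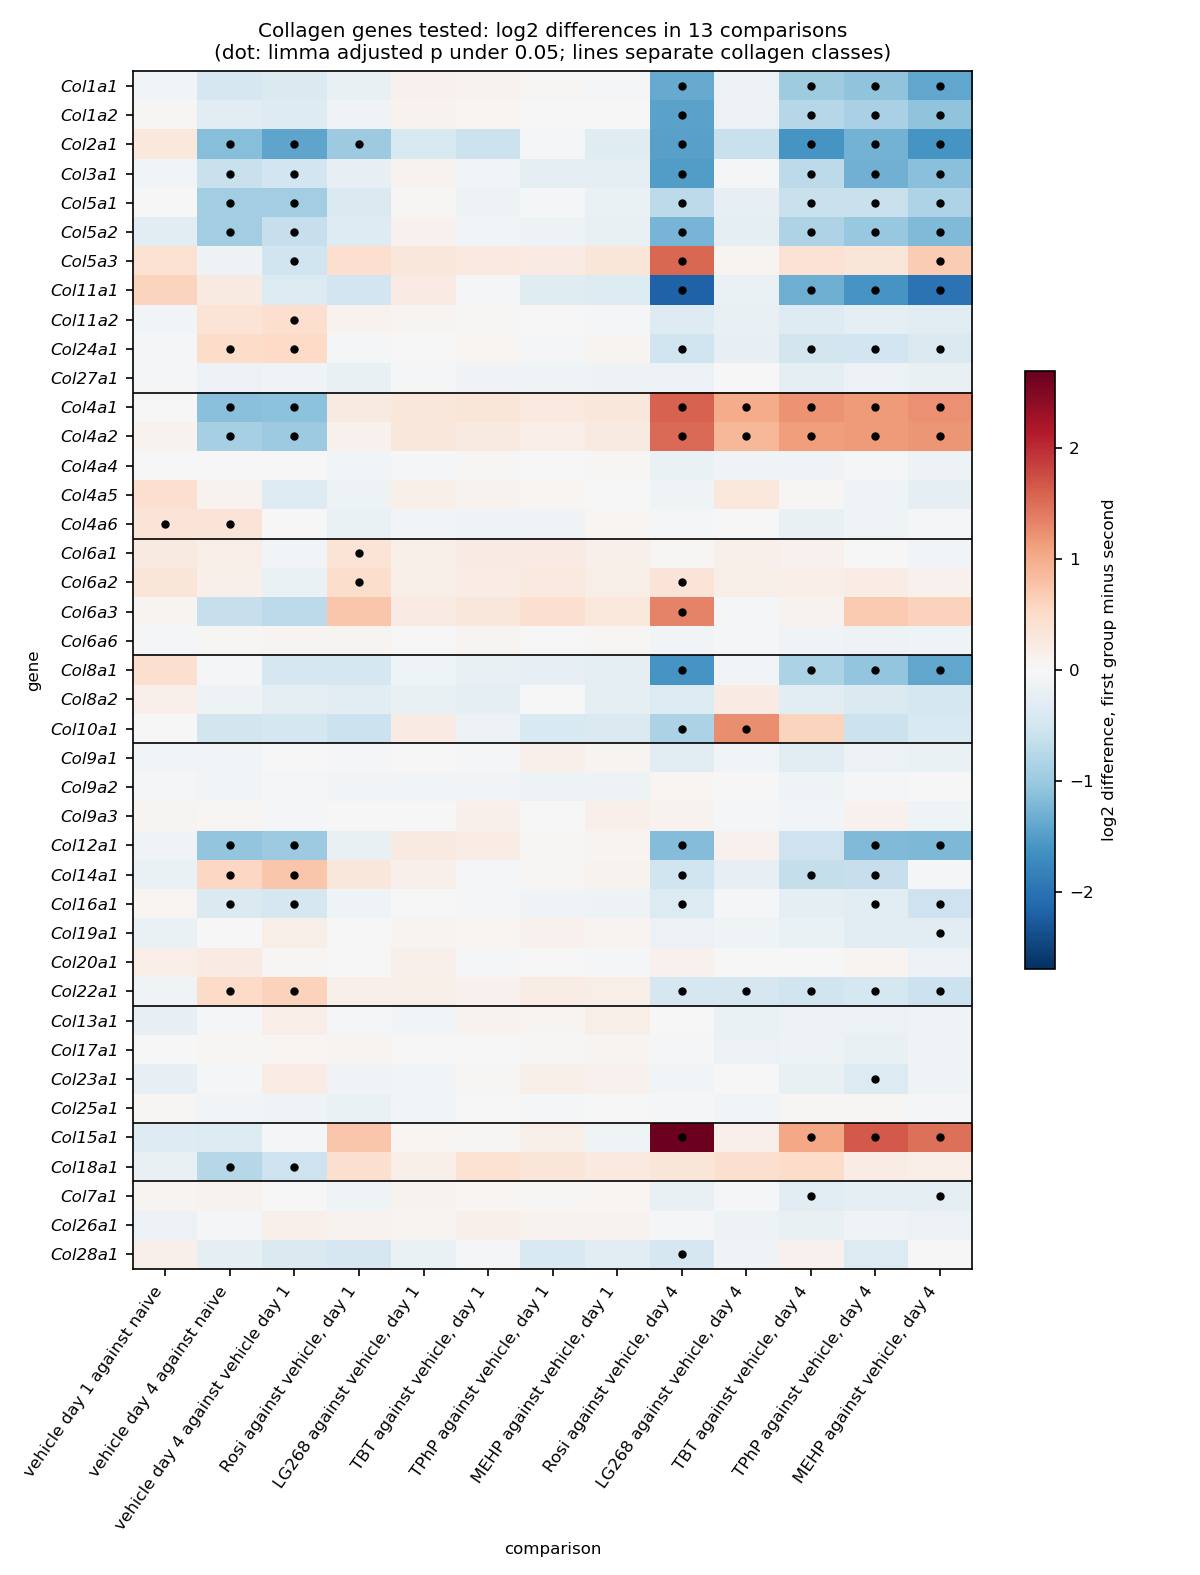
Heat map of the log2 difference (colour) of 41 collagen genes (rows, horizontal lines between classes) in 13 comparisons (columns), with a dot where limma's adjusted p was under 0.05. At day 4 the fibrillar rows are mostly blue with Rosi, TBT, TPhP and MEHP, and the rows of Col4a1, Col4a2 and Col15a1 are red, with Col15a1 reaching 2.64 with Rosi.

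The vehicle arrays of day 4 bear on every comparison at that day. Over the 41 genes, the median SD between the 4 arrays of a group was 0.32 there and between 0.15 and 0.25 in the other groups. The vehicle array of pool 12 was the lowest of its group for 27 of the 41 genes. Pool 12 was often lowest in other groups too, at day 1 for 26 genes with Rosi and LG268 each, 24 with TBT and 22 with vehicle. At day 4 it was lowest for 20 with TBT and 18 with LG268. In the remaining groups it was lowest for 6 to 14 genes. Averaged over the 11 fibrillar genes, the vehicle arrays of day 4 read 7.51, 7.87, 8.47 and 8.45 in pools 12, 15, 19 and 20, the order used for all values below. The TPhP arrays of that day ran the other way, at 7.64, 7.32, 7.25 and 7.06, so that in pool 12 the TPhP array was above the vehicle array. Neutrophil markers (7 genes, such as S100a8 and Ltf) stood high on the same vehicle arrays, with a mean of 9.25, 9.02, 7.60 and 7.80, and ran from 5.17 in pool 12 to 9.26 in pool 15 with TPhP; their part in the collagen values was not tested. The number of genes called differed between a fit over all 13 groups, used throughout, and one on only the arrays compared, which is given where it moved the number by over 1.5 times. In bulk RNA, fewer cells of a type and less RNA per cell cannot be told apart. The labels do not say how arrays of a pool were cultured, so p-values measure the spread between these pools.

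The labelled stromal cell type was compared with marker genes. All 7 stromal progenitor markers (such as Pdgfra, Cxcl12 and Lepr) lay above 4.05 in each of the 13 groups. All 8 macrophage markers (such as Adgre1 and Csf1r) did so too, and their mean per array lay between 9.81 and 11.47. RNA of macrophage genes was thus measured in every group beside that of stromal genes. Of 7 cartilage markers, Acan (3.29 to 3.59), Matn1 (3.37 to 3.83) and Hapln1 (2.74 to 3.77) averaged under the table's median in every group. Matn3 did so only with TBT, TPhP and MEHP at day 4. Sox9 (5.52 to 7.36), Comp (5.51 to 8.10) and Snorc lay above that median in every group.

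Among the fibrillar chains, Col1a1 and Col1a2 encode type I collagen. Col1a1 read 12.10, 12.35, 12.25 and 12.34 in naive arrays, 12.14, 12.11, 12.24 and 12.29 in vehicle arrays at day 1, and 11.11, 11.69, 12.19 and 12.25 in those at day 4. Pools 19 and 20 kept their level while pool 12 was lower, and the difference of day 4 from naive was -0.45 ± 0.18 (adjusted p = 0.055). With the pool as a block it was called (adjusted p = 0.049). At day 4 Col1a1 read 10.54, 10.32, 10.49 and 10.44 with Rosi, all under the lowest vehicle array. It read 11.52, 11.73, 11.56 and 11.80 with LG268, within the vehicle range. With TBT it read 10.87, 11.17, 10.65 and 10.68, with TPhP 11.44, 10.81, 10.52 and 10.08, and with MEHP 10.38, 10.81, 10.17 and 10.30. The MEHP arrays lay under all vehicle arrays, while 1 array each of TBT (pool 15) and TPhP (pool 12) reached into the vehicle range.

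Col1a1 was thus 2.57-fold lower with Rosi (-1.36 ± 0.18) and fell by 0.97 ± 0.18 with TBT, 1.09 ± 0.18 with TPhP and 1.39 ± 0.18 with MEHP on the log2 scale. The TPhP array of pool 12 was 0.33 above its vehicle array, and the other 3 pools were lower by 0.88 to 2.16 on that scale. Col1a2 moved alike, by -1.44 ± 0.16 with Rosi, -0.76 ± 0.16 with TBT, -0.88 ± 0.16 with TPhP and -1.08 ± 0.16 with MEHP, again with pool 12 of TPhP above vehicle. LG268 differed from vehicle by -0.16 ± 0.18 for Col1a1 (adjusted p = 0.69) and -0.16 ± 0.16 for Col1a2 (adjusted p = 0.63). A second probe set of Col1a2 gave -1.68 with Rosi.

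Col3a1 encodes type III collagen, which forms fine fibrils with type I. It read 9.40, 9.25, 10.36 and 10.45 with vehicle at day 4, 8.51, 8.39, 8.19 and 8.34 with Rosi and 8.80, 8.49, 8.61 and 8.38 with TPhP, so neither group overlapped vehicle. The falls were 1.51 ± 0.18 with Rosi, 0.71 ± 0.18 with TBT, 1.29 ± 0.18 with TPhP and 1.12 ± 0.18 with MEHP, in the same direction in 4 of 4 pools each. With LG268 the difference was -0.05 ± 0.18 (adjusted p = 0.92). Its neighbour on chromosome 1, Col5a2, a chain of the type V collagen that limits fibril width, fell by 1.26 ± 0.20, 0.83 ± 0.20, 1.01 ± 0.20 and 1.20 ± 0.20 with the same chemicals. Col5a1, its partner chain, fell less far, by 0.71 ± 0.22 with Rosi, 0.59 ± 0.22 with TBT, 0.61 ± 0.22 with TPhP and 0.83 ± 0.22 with MEHP. The falls of Col5a1 with Rosi, TBT and TPhP, and that of Col5a2 with TPhP, were seen in 3 of 4 pools. A second, dim probe set of Col5a1 (mean 4.80) gave -0.29 with Rosi.

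Col11a1 encodes a chain of type XI collagen, which nucleates fibrils in cartilage and is also made by other mesenchymal cells. It read 6.74, 7.96, 9.09 and 9.31 with vehicle at day 4, 6.25, 5.82, 6.17 and 6.10 with Rosi, and 6.01, 6.66, 6.27 and 6.15 with MEHP. Vehicle pools 19 and 20 were far above pool 12, and the pool 12 array still lay above all arrays of both chemicals. The difference was -2.19 ± 0.32 with Rosi, a 4.57-fold lower level, with pools between -3.21 and -0.49. It was -1.32 ± 0.32 with TBT, -1.58 ± 0.32 with TPhP and -2.00 ± 0.32 with MEHP, with pool 12 at 0.01 for TBT and 0.30 for TPhP. Col2a1, the type II chain of cartilage, fell by 1.48 ± 0.24, 1.59 ± 0.24, 1.28 ± 0.24 and 1.59 ± 0.24 with the 4 chemicals, the TPhP fall in 3 of 4 pools. Its vehicle arrays at day 4 read 6.63, 6.85, 7.97 and 7.22 and those with TBT 6.03, 5.71, 5.31 and 5.25, without overlap. Col24a1, a fibrillar chain of developing bone, was dim (3.99 to 4.89 over all arrays) and fell with Rosi (-0.53 ± 0.12), TBT (-0.49 ± 0.12), TPhP (-0.53 ± 0.12) and MEHP (-0.38 ± 0.12).

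Col5a3 went the other way. This chain of type V collagen read 5.94, 6.02, 6.49 and 6.36 with vehicle at day 4 and 7.66, 7.13, 8.08 and 8.18 with Rosi, a rise of 1.56 ± 0.19, or 2.95-fold. With MEHP it read 6.33, 6.53, 7.43 and 7.24 and rose by 0.68 ± 0.19, the ranges overlapping. The differences with TBT (0.39 ± 0.19, adjusted p = 0.13), TPhP (0.33 ± 0.19, adjusted p = 0.23) and LG268 (0.08 ± 0.19, adjusted p = 0.87) were not called. Col11a2 and Col27a1 were called with no chemical at day 4. Beside these falls, the mean of the 7 cartilage markers per array lay between 4.71 and 5.21 with vehicle at day 4, 4.20 and 4.32 with Rosi, 4.43 and 4.64 with LG268, 4.20 and 4.35 with TBT, 4.39 and 4.58 with TPhP, and 3.88 and 4.50 with MEHP. No treated array overlapped the vehicle arrays, and of the 4 markers that passed the filter 3 fell with Rosi and MEHP each and 2 with LG268, TBT and TPhP each. Of all genes tested, 27.7% fell with Rosi, 11.7% with MEHP, 2.26% with LG268, 9.42% with TBT and 7.94% with TPhP. The part of these markers in the falls of Col2a1 and Col11a1 was not tested.

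**Figure D2:**
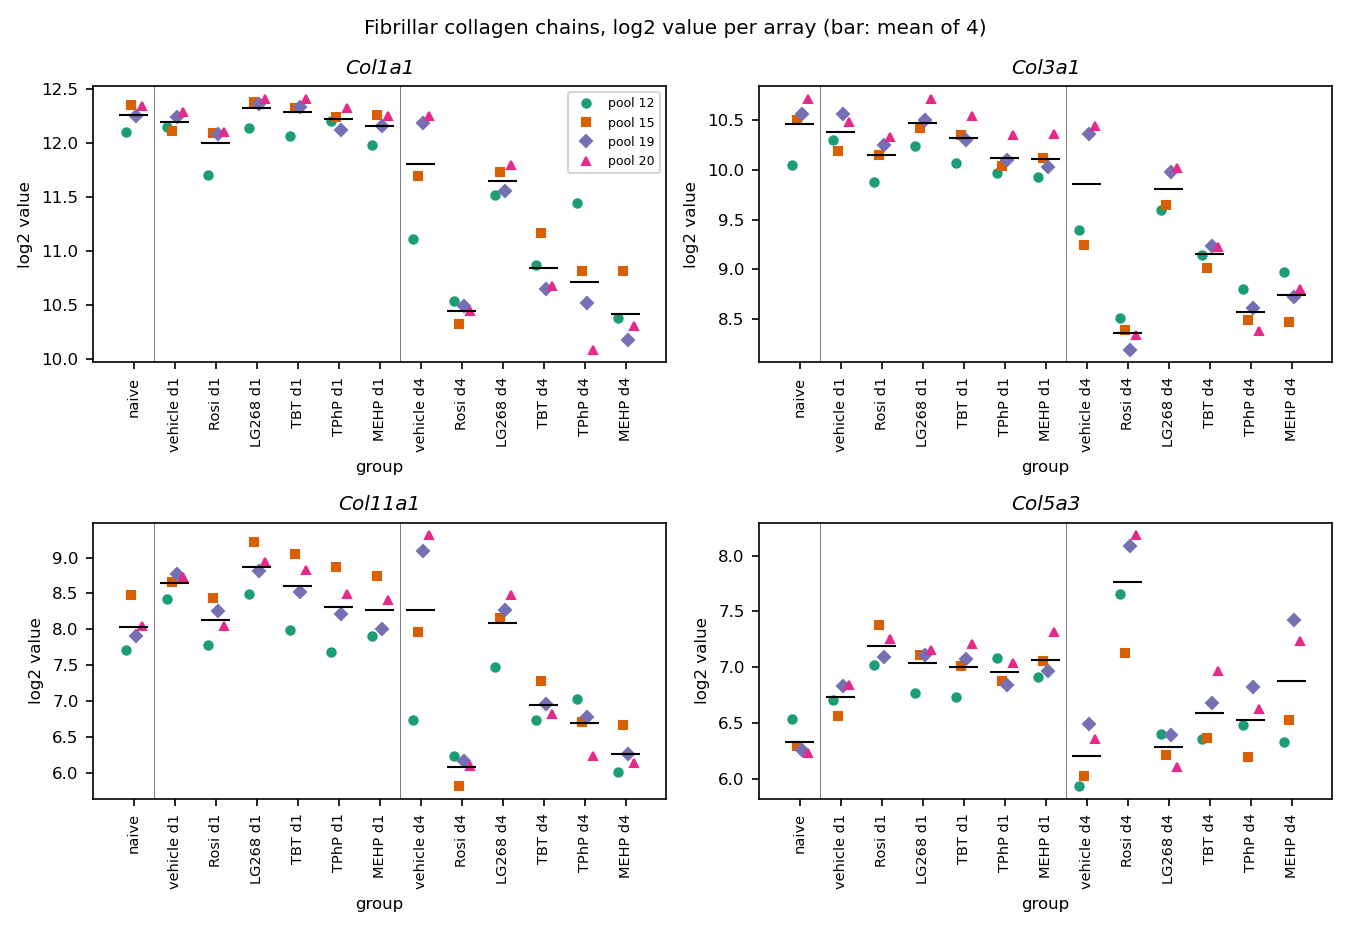
Log2 value (vertical axis) of Col1a1, Col3a1, Col11a1 and Col5a3 on each array by group (horizontal axis, d1 and d4 for day 1 and day 4), with a symbol per pool and a bar at the mean of 4. At day 4 the vehicle arrays spread from 6.74 to 9.31 for Col11a1, and the Rosi arrays of Col1a1, Col3a1 and Col11a1 lie under all vehicle arrays while those of Col5a3 lie above them.

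Of the 11 fibrillar genes, 8 fell with Rosi, 8 with TBT, 8 with TPhP and 8 with MEHP, 1 rose with Rosi and MEHP, and none was called with LG268. Of all genes tested, 27.7% fell with Rosi, 9.42% with TBT, 7.94% with TPhP, 11.7% with MEHP and 2.26% with LG268. Rises made up 21.3% with Rosi and 12.1% with MEHP. No fibrillar gene was called with LG268 in the fit with the pool as block either, and 1 had an unadjusted p under 0.05 (Col2a1, -0.59 ± 0.24). When pool 12 was left out, Col2a1 was called with LG268. The median of the 11 differences was -1.26 with Rosi, -0.18 with LG268, -0.71 with TBT, -0.88 with TPhP and -1.08 with MEHP, against -0.05, -0.02, -0.04, -0.03 and -0.05 over all genes tested.

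Several of these calls rested on pools 19 and 20. With TBT, the falls of Col3a1, Col5a1, Col5a2 and Col11a1 were not called without pool 19 (adjusted p = 0.095, 0.35, 0.10 and 0.098) or without pool 20 (0.072, 0.30, 0.089 and 0.12), nor that of Col1a2 without pool 19 (0.058). With TPhP, those of Col11a1, Col5a2 and Col1a2 were not called without pool 20 (0.074, 0.060 and 0.056). With Rosi the call of Col5a1 ended without pool 19 (0.078) or 20 (0.10), as did its call with MEHP (0.083 and 0.11). With TPhP it ended without pool 15 (0.10), 19 (0.39) or 20 (0.48), and with TBT also without pool 15 (0.089). The fall of Col24a1 with MEHP ended without pool 19 (0.072) or 20 (0.15), and the rise of Col5a3 with MEHP likewise (0.078 and 0.069). The Rosi falls of Col1a1, Col1a2, Col2a1, Col3a1, Col5a2, Col11a1 and Col24a1 and the Rosi rise of Col5a3 were called without any 1 pool.

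The upstream sequence of genes that moved in opposite directions is shown for comparison. Promoter windows from RefSeq (GRCm38.p6) were matched for 35 of the 44 genes. The 120 bases before the annotated start are printed 5′ to 3′ on the gene's strand, for 3 fibrillar genes that fell with Rosi, TBT, TPhP and MEHP, then for 2 genes that rose with Rosi and for Col10a1, which rose with LG268 and fell with Rosi. Capitals mark matches on either strand to the CCAAT box, the GC box GGGCGG, the TATA box TATAAA or AGGTCA, the single element bound by nuclear receptors.
Col1a2, chr6:4505498-4505617, plus strand: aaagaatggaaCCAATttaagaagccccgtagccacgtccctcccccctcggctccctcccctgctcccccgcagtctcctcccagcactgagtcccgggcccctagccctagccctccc
Col3a1, chr1:45311418-45311537, plus strand: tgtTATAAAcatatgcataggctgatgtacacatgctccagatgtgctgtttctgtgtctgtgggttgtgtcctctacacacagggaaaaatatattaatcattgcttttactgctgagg
Col11a1, chr3:114030420-114030539, plus strand: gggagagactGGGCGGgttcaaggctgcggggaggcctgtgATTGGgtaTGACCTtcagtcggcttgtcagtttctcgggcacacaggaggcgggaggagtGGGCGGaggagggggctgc
Col15a1, chr4:47207892-47208011, plus strand: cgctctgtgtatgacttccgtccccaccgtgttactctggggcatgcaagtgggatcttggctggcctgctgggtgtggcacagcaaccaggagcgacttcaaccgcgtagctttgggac
Col5a3, chr9:20815068-20815187, minus strand: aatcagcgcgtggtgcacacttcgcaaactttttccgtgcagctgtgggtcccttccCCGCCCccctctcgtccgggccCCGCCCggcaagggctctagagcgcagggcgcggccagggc
Col10a1, chr10:34389861-34389980, plus strand: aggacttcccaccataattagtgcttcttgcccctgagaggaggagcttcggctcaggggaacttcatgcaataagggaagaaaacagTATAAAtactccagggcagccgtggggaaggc
Col11a1 held 4 matches in this stretch, Col5a3 held 2, Col1a2, Col3a1 and Col10a1 held 1 each and Col15a1 none. Over the 250 bases before the start, CCAAT was found in 12 of 35 collagen promoters (34.3%) and 34.5% of 27025 promoters in the table, GGGCGG in 21 of 35 (60.0%) and 32.9%, and TATAAA in 5 of 35 (14.3%) and 13%. AGGTCA was found in 8 of 35 (22.9%) and 13.8%, in Col11a1 among the genes printed. The pair AGGTCANAGGTCA, the arrangement known as DR1 to which PPARγ and RXR bind together and which contains that element, was in none of the 35 windows and in 0.037% of all promoters. A match is a run of letters and not a site shown to be bound.

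Type IV collagen contrasted with the fibrillar chains. Col4a1 and Col4a2 encode the chains of the common basement membrane collagen and lie head to head on chromosome 8, with annotated starts 21 bases apart in RefSeq (GRCm38.p6). Col4a1 read 9.06, 9.24, 9.51 and 9.34 in naive arrays and 7.30, 7.85, 8.85 and 8.67 with vehicle at day 4, a fall of 1.12 ± 0.21. At day 4 it read 9.82, 9.31, 9.90 and 10.01 with Rosi, 8.97, 9.01, 9.39 and 9.30 with LG268, 9.08, 9.31, 9.56 and 9.60 with TBT, 9.07, 9.07, 9.69 and 9.41 with TPhP, and 8.90, 9.12, 9.87 and 9.75 with MEHP. Every array of the 5 chemicals exceeded the highest vehicle array, 8.85.

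The rises of Col4a1 were 1.59 ± 0.21 with Rosi (3.01-fold), 1.00 ± 0.21 with LG268, 1.22 ± 0.21 with TBT, 1.14 ± 0.21 with TPhP and 1.24 ± 0.21 with MEHP, all in 4 of 4 pools. Those of Col4a2 were 1.54 ± 0.22, 0.90 ± 0.22, 1.12 ± 0.22, 1.16 ± 0.22 and 1.20 ± 0.22 in the same order. Col4a2 read 6.97, 7.33, 8.51 and 8.33 with vehicle and 8.49, 8.46, 8.90 and 8.88 with LG268, the ranges overlapping slightly. The differences were larger in pool 12 (2.52 for Col4a1 with Rosi, 1.67 with LG268), where vehicle was lowest, than in pool 19 (1.05 and 0.54). Without the vehicle array of pool 12 at day 4 the Col4a2 rise with LG268 was not called (adjusted p = 0.082), nor was it without pool 12 (0.064) or pool 15 (0.078). The remaining rises of both genes were called without any 1 pool. Col4a4, Col4a5 and Col4a6 were called with no chemical. Col4a1 and Col4a2 were 2 of the 5 basement membrane genes tested.

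**Figure D3:**
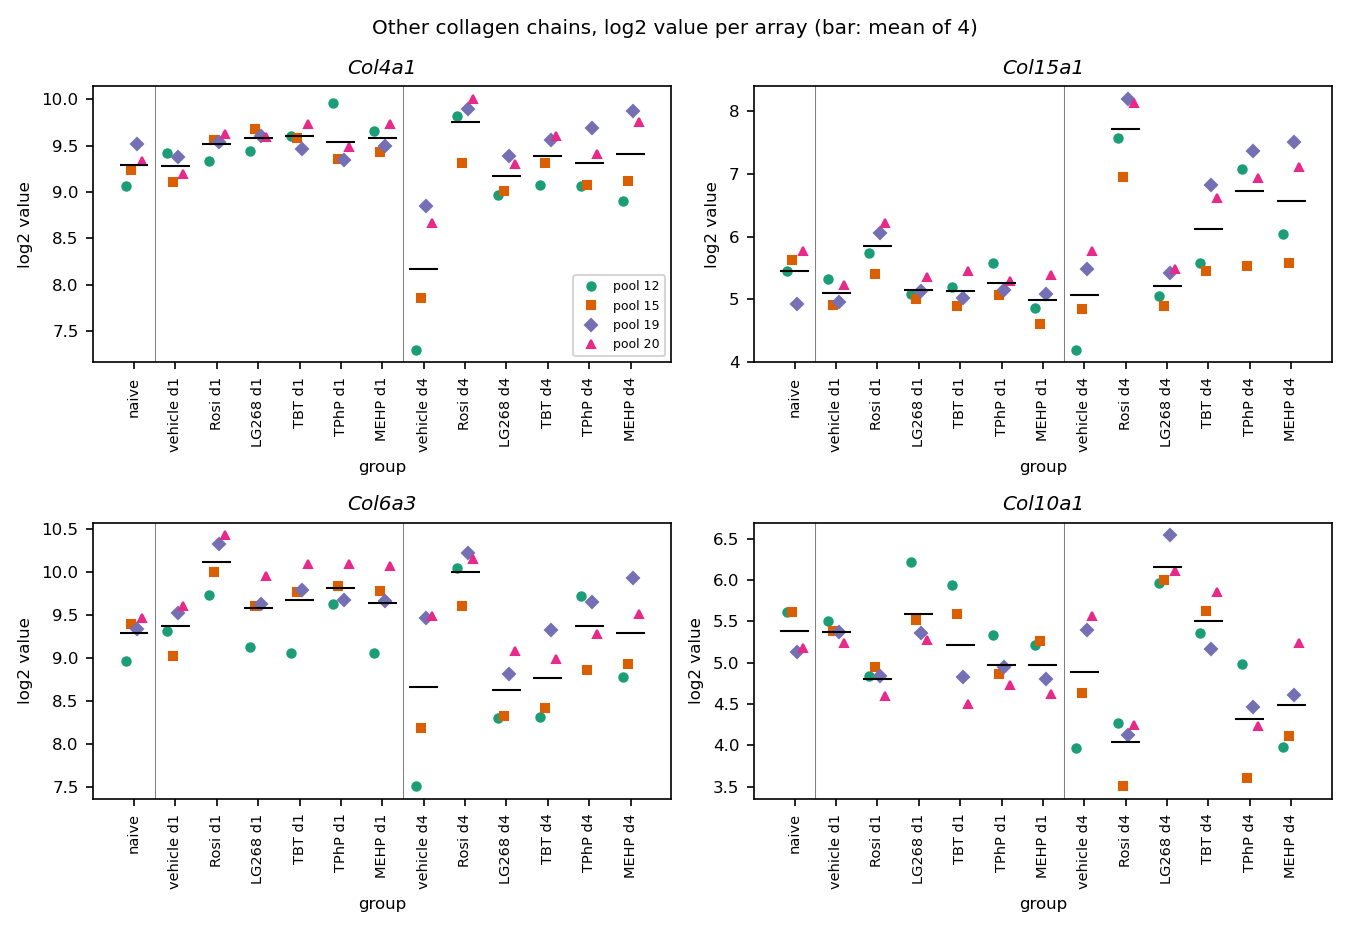
Log2 value (vertical axis) of Col4a1, Col15a1, Col6a3 and Col10a1 on each array by group (horizontal axis, d1 and d4 for day 1 and day 4), with a symbol per pool and a bar at the mean of 4. All 20 treated arrays of Col4a1 at day 4 lie above 8.85, the highest vehicle array, and Col10a1 is highest with LG268, between 5.97 and 6.54.

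Col15a1, a multiplexin of the outer basement membrane, had the largest difference of any collagen gene in the 13 comparisons. It read 4.20, 4.85, 5.49 and 5.77 with vehicle at day 4 and 7.58, 6.95, 8.20 and 8.14 with Rosi, a rise of 2.64 ± 0.35, or 6.24-fold. With TPhP it read 7.08, 5.53, 7.37 and 6.94 and rose by 1.65 ± 0.35. With MEHP it read 6.05, 5.58, 7.52 and 7.12 and rose by 1.49 ± 0.35, and with TBT 5.58, 5.46, 6.82 and 6.62, a rise of 1.04 ± 0.35. Those 3 groups overlapped vehicle through pool 15, or pools 12 and 15 for TBT. The TBT rise was not called without pool 12 (adjusted p = 0.13), pool 19 (0.13), pool 20 (0.099) or the vehicle array of pool 12 alone (0.16). With LG268 the difference was 0.14 ± 0.35 (adjusted p = 0.89). Col18a1, the other multiplexin and source of endostatin, differed from vehicle by 0.49 ± 0.19 with TBT (adjusted p = 0.054, and 0.013 with the pool as block).

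Type VI chains showed smaller differences. Col6a3, the chain from which endotrophin is cut, read 7.51, 8.18, 9.47 and 9.50 with vehicle at day 4 and 10.05, 9.61, 10.22 and 10.16 with Rosi, a rise of 1.34 ± 0.31 that ran from 0.66 in pool 20 to 2.54 in pool 12. Its differences with TPhP (0.71 ± 0.31, adjusted p = 0.10) and MEHP (0.63 ± 0.31, adjusted p = 0.14) were called only with the pool as block (0.014 and 0.027). Col6a2 rose by 0.36 ± 0.15 with Rosi, a call lost without any 1 of the 4 pools (adjusted p between 0.057 and 0.16) and without the vehicle array of pool 12 (0.082). Col6a1, its neighbour on chromosome 10, was called with no chemical at day 4 (11.04, 10.76, 11.41 and 11.44 with vehicle, 11.19, 11.10, 11.26 and 11.19 with Rosi).

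Among the net-forming short chains, Col8a1 fell and Col10a1 differed in direction between chemicals. Col8a1, made by endothelial and smooth muscle cells among others, read 9.04, 10.52, 11.21 and 11.24 with vehicle at day 4 and 9.28, 8.64, 8.86 and 8.81 with Rosi, the pool 12 pair lying 0.25 the other way. The falls were 1.60 ± 0.27 with Rosi, 0.86 ± 0.27 with TBT, 1.07 ± 0.27 with TPhP and 1.39 ± 0.27 with MEHP, each in 3 of 4 pools. Without pool 19 or pool 20 those with TBT (adjusted p = 0.34 and 0.31) and TPhP (0.19 and 0.24) were not called.

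Col10a1, known as the collagen of hypertrophic cartilage, read 3.97, 4.63, 5.40 and 5.56 with vehicle at day 4 and 5.97, 6.00, 6.54 and 6.11 with LG268. Every LG268 array exceeded every vehicle array, and the rise was 1.26 ± 0.29, or 2.40-fold, in 4 of 4 pools. With Rosi it read 4.28, 3.50, 4.12 and 4.25, a fall of 0.85 ± 0.29 in 3 of 4 pools that was not called without pool 15 (adjusted p = 0.074), 19 (0.13) or 20 (0.081). The arrays at the low end lay near 4.05, so the sizes are uncertain. With TBT it read 5.35, 5.62, 5.17 and 5.85 and did not pass (0.61 ± 0.29, adjusted p = 0.14). The LG268 array means were 2.12 ± 0.29 above those of Rosi when the groups were compared directly, with no overlap.

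FACIT genes called with a chemical at day 4 fell. Col12a1, which links fibrils under tension, read 8.89, 9.50, 10.81 and 10.80 with vehicle at day 4 and fell with Rosi (-1.17 ± 0.28), TPhP (-1.18 ± 0.28) and MEHP (-1.20 ± 0.28). The falls with Rosi and TPhP were seen in 3 of 4 pools. With TBT the difference was -0.56 ± 0.28 (adjusted p = 0.16, and 0.049 with the pool as block). The TPhP fall was not called without pool 19 (0.089) or 20 (0.099), and the MEHP fall not without pool 19 (0.066). Col22a1, a dim gene of tissue junctions, fell with each chemical. It read 4.68, 4.82, 4.70 and 5.15 with vehicle and 4.28, 4.49, 4.55 and 4.17 with LG268, and the falls ran from 0.44 ± 0.13 with Rosi to 0.58 ± 0.13 with MEHP. Without pool 20 the falls with Rosi (adjusted p = 0.061), LG268 (0.29), TPhP (0.14) and MEHP (0.083) were not called, and the LG268 fall also not without pool 12 (0.057) or 15 (0.097).

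Col14a1, of mature connective tissue, fell with Rosi (-0.54 ± 0.18), TBT (-0.65 ± 0.18) and TPhP (-0.63 ± 0.18), from 4.73, 4.40, 5.19 and 4.54 with vehicle to 4.16, 4.14, 4.11 and 3.84 with TBT. With MEHP it differed by -0.06 ± 0.18 (adjusted p = 0.85). These falls were not called without pool 19 (0.15, 0.12 and 0.12), those with TBT and TPhP not without pool 20 (0.084 and 0.058), and that with TPhP not without pool 12 (0.092). Col16a1 fell by 0.38 ± 0.11 with Rosi, 0.31 ± 0.11 with TPhP and 0.55 ± 0.11 with MEHP, the TPhP call ending without pool 15, 19 or 20 (0.13, 0.31 and 0.27). That TPhP fall was seen in 3 of 4 pools.

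The other classes held few calls. Col7a1, of anchoring fibrils, fell with TBT (-0.29 ± 0.10) and MEHP (-0.27 ± 0.10), Col19a1 with MEHP (-0.31 ± 0.12), Col23a1 with TPhP (-0.37 ± 0.13) and Col28a1 with Rosi (-0.45 ± 0.17). With TPhP, Col7a1 (-0.26 ± 0.10) and Col19a1 (-0.30 ± 0.12) were called only with the pool as block (adjusted p = 0.056 and 0.069 without it, 0.040 and 0.011 with it). The Col7a1 call with TBT ended without pool 15, 19 or 20 (adjusted p = 0.15, 0.18 and 0.072), and that with MEHP without pool 12, 15 or 20 (0.067, 0.058 and 0.40). Those of Col19a1 and Col23a1 ended without any 1 pool (0.067 to 0.21 and 0.057 to 0.19), that of Col28a1 without pool 12 or 15 (0.17 and 0.058), and those of Col19a1 and Col28a1 without the vehicle array of pool 12 (0.065 and 0.087). Col19a1 and Col28a1 lay under 4.05 on all arrays of the lower group. Col9a1, Col9a2, Col9a3, Col13a1, Col17a1, Col20a1, Col25a1, Col26a1, Col27a1, Col4a4, Col4a5, Col6a6 and Col8a2 were called in none of the 13 comparisons.

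**Figure D4:**
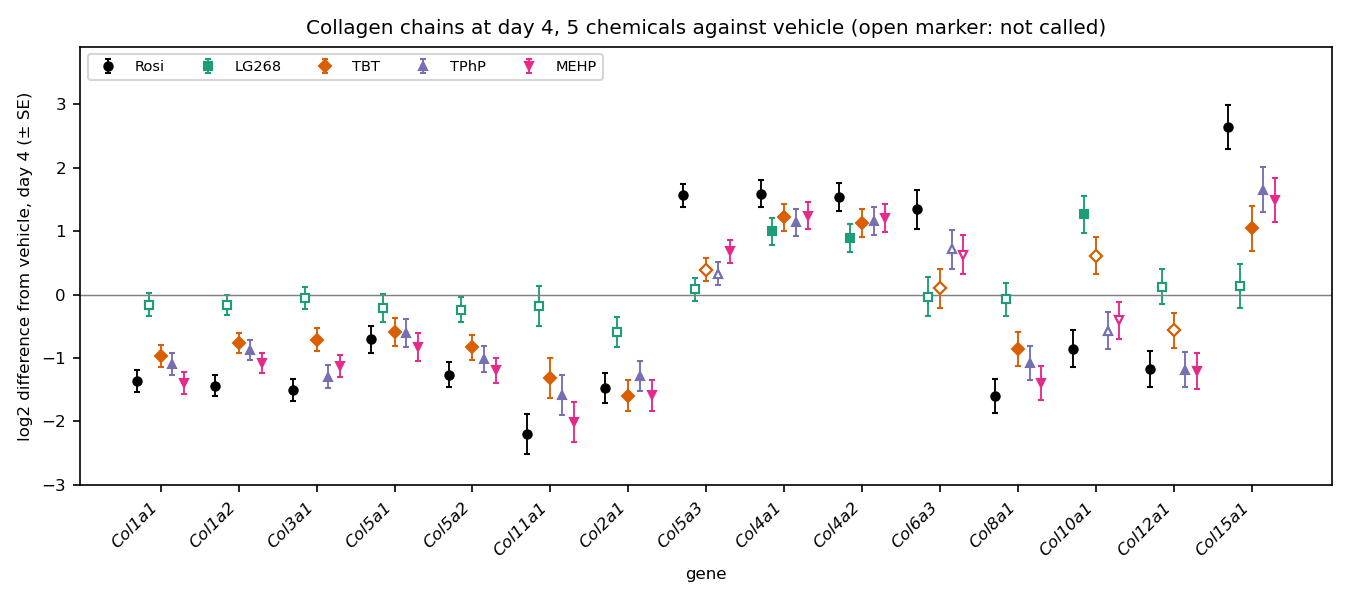
Log2 difference from vehicle at day 4 ± SE (vertical axis, limma, 4 arrays a group) for 15 collagen genes (horizontal axis) and 5 chemicals (symbols), with open markers where the adjusted p was not under 0.05. All 8 LG268 markers of the fibrillar genes are open, between -0.59 (Col2a1) and 0.08 (Col5a3), whereas those of Col4a1, Col4a2 and Col10a1 lie at 1.00, 0.90 and 1.26.

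Over all classes at day 4, Rosi raised 6 of 41 collagen genes and lowered 15 (36.6%), where 21.3% and 27.7% of the genes tested rose and fell. TBT raised 3 and lowered 12 (29.3%), against 10.6% and 9.42%. TPhP raised 3 and lowered 14 (34.1%), against 11.0% and 7.94%, and MEHP raised 4 and lowered 14 (34.1%), against 12.1% and 11.7%. LG268 raised 3 and lowered 1, against 4.21% and 2.26%. The shares that fell with TBT, TPhP and MEHP were above the background, and that with LG268 (2.44%) was close to it. The medians over the 41 genes were -0.16 with Rosi, -0.05 with LG268, -0.19 with TBT, -0.21 with TPhP and -0.16 with MEHP. These comparisons share the vehicle arrays, so they are not independent of each other. Without pool 19 or pool 20 the TBT count of 15 was 6 or 8 and the TPhP count of 17 was 11 or 7, and without pool 15 the LG268 count of 4 was 2.

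Fitted on only the arrays compared, 15 of the 21 Rosi calls held, as did 6 of 15 for TBT (Col1a1, Col2a1, Col24a1, Col4a1, Col14a1 and Col22a1), 1 of 17 for TPhP (Col3a1), 4 of 18 for MEHP (Col1a1, Col1a2, Col2a1 and Col5a2) and none of 4 for LG268. The Rosi calls that ended so were those of Col5a1, Col6a2, Col10a1, Col12a1, Col14a1 and Col16a1. For LG268, limma on those arrays alone gave adjusted p between 0.089 and 0.20 for the 4 genes, and with the pool as block added in that fit 1 of 4 held (Col10a1). With that block 17 of 21 Rosi calls, 7 of 15 TBT calls, 2 of 17 TPhP calls and 12 of 18 MEHP calls held. No call changed sign.

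The vehicle cultures themselves changed between naive and day 4. Of 41 genes 4 rose and 9 fell against naive (17.4% and 11.5% of genes tested), and 4 rose and 10 fell from day 1 to day 4 (4.60% and 8.29%). Against naive, Col2a1 fell by 1.14 ± 0.24, Col4a1 by 1.12 ± 0.21, Col12a1 by 1.07 ± 0.28, Col5a1 by 0.94 ± 0.22, Col5a2 by 0.93 ± 0.20, Col4a2 by 0.90 ± 0.22, Col18a1 by 0.77 ± 0.19, Col3a1 by 0.60 ± 0.18 and Col16a1 by 0.40 ± 0.11, in 4 of 4 pools each. The falls were steeper in pools 12 and 15. Col12a1, for example, fell by 2.04 and 1.51 there and by 0.32 and 0.40 in pools 19 and 20.

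Rises in vehicle involved dimmer genes. Col14a1 read 4.14, 4.21, 4.08 and 4.19 in naive arrays and 4.73, 4.40, 5.19 and 4.54 at day 4 (0.56 ± 0.18). Col22a1 rose by 0.51 ± 0.13, Col24a1 by 0.49 ± 0.12 and Col4a6 by 0.35 ± 0.12, the last staying near or under 4.05 in both groups. Col24a1, Col22a1 and Col14a1 rose from day 1 to day 4 as well (0.53 ± 0.12, 0.62 ± 0.13 and 0.74 ± 0.18), with Col11a2 (0.45 ± 0.15).

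Of the 13 calls against naive, 5 held on only the arrays compared (Col2a1, Col24a1, Col4a1, Col14a1 and Col22a1), and 2 of 14 from day 1 to day 4 (Col2a1 and Col24a1). Without the vehicle array of pool 12 at day 4, 12 of 13 and 9 of 14 held, and Col3a1 was then not called in either (adjusted p = 0.061 and 0.22). Of the 14 calls against day 1, 7 held when pool 12, pool 15 or pool 19 was dropped in turn. Leaving out pool 15 ended the fall of Col3a1 against naive (0.19), pool 15 or 19 that of Col16a1 (0.068 and 0.092), pool 15 or 20 the rise of Col4a6 (0.10 and 0.19) and pool 19 or 20 that of Col14a1 (0.23 and 0.061). Against day 1, the falls of Col12a1 (0.090 and 0.091) and Col5a2 (0.051 and 0.24) ended without pool 12 or 15 and without the vehicle array of pool 12 (0.15 and 0.24), that of Col4a2 without pool 12 (0.052), and that of Col5a1 without pool 15 (0.056). The falls of Col3a1, Col5a2 and Col18a1 ended without pool 19 (0.089, 0.078 and 0.071), as did that of Col16a1 (0.067) and the rise of Col14a1 (0.064). Col3a1 (0.20 and 0.27) and Col18a1 (0.39 and 0.092) also lost their calls without pool 12 or 15, and Col11a2 (0.060 to 0.23) and Col5a3 (-0.53 ± 0.19, 0.10 to 0.19) without any 1 pool. Leaving out the vehicle array of pool 12 ended the calls of Col5a3 (0.17) and Col18a1 (0.18) as well.

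After 1 day few collagen genes were called in the fit over all groups. In vehicle against naive, Col4a6 alone was called (0.34 ± 0.12), with 12.9% of genes tested up and 4.86% down, and it lost its call without pool 15, 19 or 20 (adjusted p = 0.081, 0.18 and 0.24). The pool block added Col4a5 (0.45 ± 0.18, adjusted p = 0.038). With Rosi, 2 of 41 rose and 1 fell (4.16% and 3.08% of genes tested). Col2a1 read 8.75, 8.57, 8.54 and 8.53 with vehicle and 7.32, 8.26, 7.50 and 7.38 with Rosi, a fall of 0.98 ± 0.24. Col6a1 read 11.19, 11.28, 11.19 and 11.32 with vehicle and 11.41, 11.70, 11.68 and 11.69 with Rosi (0.38 ± 0.12), and Col6a2 9.44, 9.63, 9.58 and 9.73 against 9.99, 10.05, 10.09 and 10.14 (0.47 ± 0.15). Col6a3, their partner in the same heterotrimer, read 9.73, 10.00, 10.33 and 10.43 with Rosi against 9.32, 9.02, 9.52 and 9.61, and was called only with the pool as block (0.76 ± 0.31, adjusted p = 0.15 without the block and 0.019 with it).

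Without pool 20 none of the 3 Rosi calls of day 1 remained (adjusted p = 0.10 for Col2a1, 0.21 for Col6a1 and 0.21 for Col6a2). Col6a1 also lost its call without pool 15 (0.094) or 19 (0.26), and Col6a2 without pool 12 (0.15) or 19 (0.19). On only the arrays compared, 9 collagen genes of 41 were called with Rosi (10.0% of genes tested in that fit), and 15 with the pool as block added (15.7%).

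LG268, TBT, TPhP and MEHP called no collagen gene at day 1 in limma, with or without the pool as block over all arrays. Fitted on only the arrays compared, none was called, and 1 was with TBT once the block was added. Unadjusted p was under 0.05 for 0, 2, 1 and 0 genes, namely Col2a1 (-0.59 ± 0.24) and Col18a1 (0.40 ± 0.19) with TBT and Col28a1 (-0.41 ± 0.17) with TPhP. Few genes of any kind were called then. LG268 raised 0.228% and lowered 0.0134% of those tested, TBT 0.496% and 0.0469%, TPhP 0.181% and 0.0335%, and MEHP 0.362% and 0.161%.

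The change in effect between day 1 and day 4 was tested directly as the difference of the differences. Under Rosi it was called for 13 of 41 collagen genes (30.0% of genes tested). Col1a1 (-1.16 ± 0.25), Col1a2 (-1.33 ± 0.23), Col3a1 (-1.28 ± 0.25) and Col11a1 (-1.68 ± 0.45) differed downward, and Col15a1 (1.89 ± 0.50), Col4a2 (1.42 ± 0.31), Col4a1 (1.35 ± 0.30) and Col5a3 (1.11 ± 0.26) upward. For MEHP 9 were called (6.36% of genes), for TPhP 5 (4.49%), for TBT 1 (1.77%) and for LG268 none (0.0805%), with 3 at an unadjusted p under 0.05 and none with the pool as block for LG268. With the pool as block the counts were 14 for MEHP, 14 for TPhP and 7 for TBT, and on only the arrays compared 10 for Rosi, 3 for MEHP, 0 for TPhP and 1 for TBT. The last was Col24a1, and the TBT term of Col1a1 was not called there (adjusted p = 0.061).

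These counts moved with single pools. Without pools 12, 15, 19 and 20 in turn they were 14, 10, 9 and 8 for Rosi, 11, 4, 0 and 1 for MEHP, 9, 3, 0 and 0 for TPhP and 6, 0, 0 and 0 for TBT. Under Rosi the terms of Col1a1, Col1a2, Col3a1, Col4a1, Col4a2 and Col5a3 were called without any 1 pool. That of Col11a1 was not called without pool 19 (adjusted p = 0.082) or 20 (0.074), nor that of Col15a1 without pool 12 (0.059). For Col1a1 the term was -1.36 ± 0.25 with MEHP, -1.12 ± 0.25 with TPhP and -1.05 ± 0.25 with TBT, and it was not called without pool 19 (0.095, 0.21 and 0.38), nor for TPhP and TBT without pool 20 (0.28 and 0.34) or for TBT without pool 15 (0.089).

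Set against Rosi at day 4, LG268 differed in 17 of 41 collagen genes (47.8% of genes tested), TBT in 9 (38.1%), MEHP in 4 (26.1%) and TPhP in 3 (28.2%). With LG268, Col1a1 was higher than with Rosi by 1.20 ± 0.18, Col1a2 by 1.27 ± 0.16, Col3a1 by 1.46 ± 0.18 and Col11a1 by 2.01 ± 0.32, with no overlap of arrays. Col15a1 (-2.51 ± 0.35), Col5a3 (-1.48 ± 0.19), Col6a3 (-1.38 ± 0.31), Col4a2 (-0.64 ± 0.22) and Col4a1 (-0.59 ± 0.21) were lower. Without pool 20 the last pair was not called (adjusted p = 0.076 and 0.099), nor was Col4a2 without pool 12 (0.059). Col5a3 and Col15a1 were lower than with Rosi under all of LG268, TBT (-1.17 ± 0.19 and -1.60 ± 0.35), TPhP (-1.23 ± 0.19 and -0.99 ± 0.35) and MEHP (-0.88 ± 0.19 and -1.16 ± 0.35). For Col15a1 the TPhP difference was not called without any 1 pool (0.052 to 0.15), nor the MEHP difference without pool 12 (0.093) or 20 (0.058). For Col1a1 neither TBT, TPhP nor MEHP was called against Rosi in the fit over all 13 groups. The TBT difference of Col1a1 was called on only the arrays compared, without pool 12, and without the vehicle array of pool 12 at day 4. The pool block gave 5 for TPhP, and without pool 20 the MEHP count was 1. On only the arrays compared 16 of 17, 9 of 9, 1 of 3 and 0 of 4 calls held for LG268, TBT, TPhP and MEHP.

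Genes that fold, trim, bind and degrade collagen were listed separately. Of 23 tested genes listed under collagen folding and modification, 17 fell and 1 rose with Rosi at day 4, 14 fell and 2 rose with TBT, 15 fell and 0 rose with TPhP, 16 fell and 3 rose with MEHP, and 4 fell and 1 rose with LG268. The list was broader than folding enzymes and chaperones and held genes such as Creb3l1, Mia3, Tmem38b, Aldh18a1 and Pepd. The shares that fell were 73.9%, 60.9%, 65.2%, 69.6% and 17.4%, against 27.7%, 9.42%, 7.94%, 11.7% and 2.26% of all genes tested. The median difference of the list, with Rosi, TBT, TPhP, MEHP and LG268 in turn, was -0.68, -0.36, -0.48, -0.49 and -0.20. P4ha1, a catalytic chain of the prolyl 4-hydroxylase, fell with Rosi (-0.96 ± 0.11), TBT (-0.84 ± 0.11), TPhP (-0.70 ± 0.11) and LG268 (-0.62 ± 0.11). P4ha2 fell with LG268 (-0.68 ± 0.17), TBT (-1.16 ± 0.17), TPhP (-1.14 ± 0.17) and MEHP (-1.16 ± 0.17), and P4ha3 with Rosi (-2.24 ± 0.25) and MEHP (-1.91 ± 0.25). Crtap and Ppib, partners in prolyl 3-hydroxylation, fell with Rosi (-1.04 ± 0.11 and -0.68 ± 0.07). Crtap also fell with TPhP (-0.60), a call that ended in limma on only the arrays compared (adjusted p = 0.13). All of these calls held without any 1 pool, except that of P4ha2 with LG268 (adjusted p = 0.070 without pool 19 and 0.14 without pool 20). Without pool 19 or pool 20 the number of the 23 that fell was 8 or 5 with TBT, 9 or 8 with TPhP, 13 or 12 with MEHP and 17 or 16 with Rosi. On only the arrays compared, 16 fell with Rosi, 6 with TBT, 2 with TPhP and 6 with MEHP.

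Of 11 tested genes of procollagen processing and crosslinking, 8 fell and 1 rose with Rosi, 6 fell and 1 rose with TBT, 6 fell and 0 rose with TPhP, 7 fell and 1 rose with MEHP, and 2 fell and 2 rose with LG268. The shares that fell were 72.7%, 54.5%, 54.5%, 63.6% and 18.2%, against the same background. Bmp1, the C-proteinase of procollagen, fell with Rosi (-1.76 ± 0.17), TBT (-1.04 ± 0.17), TPhP (-1.10 ± 0.17) and MEHP (-1.19 ± 0.17). Its enhancer Pcolce fell with Rosi (-1.56 ± 0.14), TPhP (-1.02 ± 0.14) and MEHP (-1.01 ± 0.14). Lox, which crosslinks collagen, fell with Rosi (-1.27 ± 0.14), TBT (-0.67 ± 0.14), TPhP (-0.74 ± 0.14) and MEHP (-0.83 ± 0.14). These calls of Bmp1, Pcolce and Lox held without any 1 pool. The TPhP call of Lox ended on only the arrays compared (adjusted p = 0.056), and with the pool as block added there so did the TPhP calls of Lox (0.15), Pcolce (0.13) and Bmp1 (0.073) and the MEHP call of Pcolce (0.051). With LG268, Adamts14, a procollagen N-proteinase, rose (0.55 ± 0.13), a call that ended without pool 15 or 20 (adjusted p = 0.072 in both) and with the mean of its probe sets (0.14).

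Among 9 tested receptors, 5 fell with Rosi, 2 with TBT, 3 with TPhP and 3 with MEHP, and 2 rose with LG268. The shares that fell were 55.6%, 22.2%, 33.3% and 33.3%, against 27.7%, 9.42%, 7.94% and 11.7% of all genes tested, and 4.21% of all genes rose with LG268. These shares rest on few genes. Itga11, the integrin chain for fibrillar collagen, fell with Rosi (-2.42 ± 0.30), TBT (-1.35 ± 0.30), TPhP (-1.38 ± 0.30) and MEHP (-1.89 ± 0.30); without pool 19 or 20 it was not called with TBT (adjusted p = 0.10 and 0.069) or TPhP (0.10 and 0.15). Ddr2, a receptor kinase for fibrillar collagen, and Mrc2, which takes up collagen fragments, fell with Rosi (-1.04 ± 0.19 and -1.37 ± 0.17) and rose with LG268 (0.64 ± 0.19 and 0.55 ± 0.17). Mrc2 also fell with TPhP (-0.71 ± 0.17) and MEHP (-0.51 ± 0.17), and without pool 19 or 20 it was not called with TPhP (0.16 and 0.24) or MEHP (0.46 and 0.38). Both LG268 rises ended without any 1 pool (0.053 to 0.28) and without the vehicle array of pool 12 (0.31 and 0.27). Of 7 genes of collagen breakdown, 5 fell with Rosi, 6 with TBT, 5 with TPhP, 5 with MEHP and 2 with LG268 (71.4%, 85.7%, 71.4%, 71.4% and 28.6%, against 27.7%, 9.42%, 7.94%, 11.7% and 2.26% of all genes tested). Without pool 19 or 20, Mmp2 (adjusted p = 0.24 and 0.26) and Mmp14 (0.25 and 0.21) were not called with TBT. With TPhP, Mmp14 was not called without pool 19 or 20 (0.062 and 0.086), nor Mmp2 without pool 20 (0.071). The Mmp8 call with LG268 ended without pool 15, 19 or 20 (0.060, 0.11 and 0.155). Mmp13, a collagenase of bone, fell with Rosi (-2.73 ± 0.39), TBT (-1.60 ± 0.39), TPhP (-1.16 ± 0.39) and MEHP (-1.44 ± 0.39). Without pool 19 or 20 it was not called with TPhP (adjusted p = 0.25 and 0.16) or MEHP (0.066 and 0.10), nor with TPhP without the vehicle array of pool 12 (0.057). Ctsk, the collagen-degrading protease of osteoclasts, fell with all 5 chemicals, from -1.22 ± 0.28 with LG268 (not called without pool 20, adjusted p = 0.10) to -2.38 ± 0.28 with Rosi. In vehicle Ctsk had risen by 1.84 ± 0.28 from naive to day 4. The mean of 6 osteoclast markers per array stood between 4.92 and 5.18 with vehicle at day 1 and between 5.94 and 6.77 at day 4, and between 5.08 and 5.85 with the 5 chemicals at day 4, without overlap with vehicle. Of the 5 that passed the filter, 3 fell with Rosi, 2 with LG268, 4 with TBT, 3 with TPhP and 3 with MEHP. Their part in the values of Ctsk was not tested. Members named in these 3 paragraphs are among the 4 with the smallest adjusted p of their list in a comparison. A gene may therefore also have been called with a chemical not named beside it, so these lists do not show effects particular to a chemical.

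**Figure D5:**
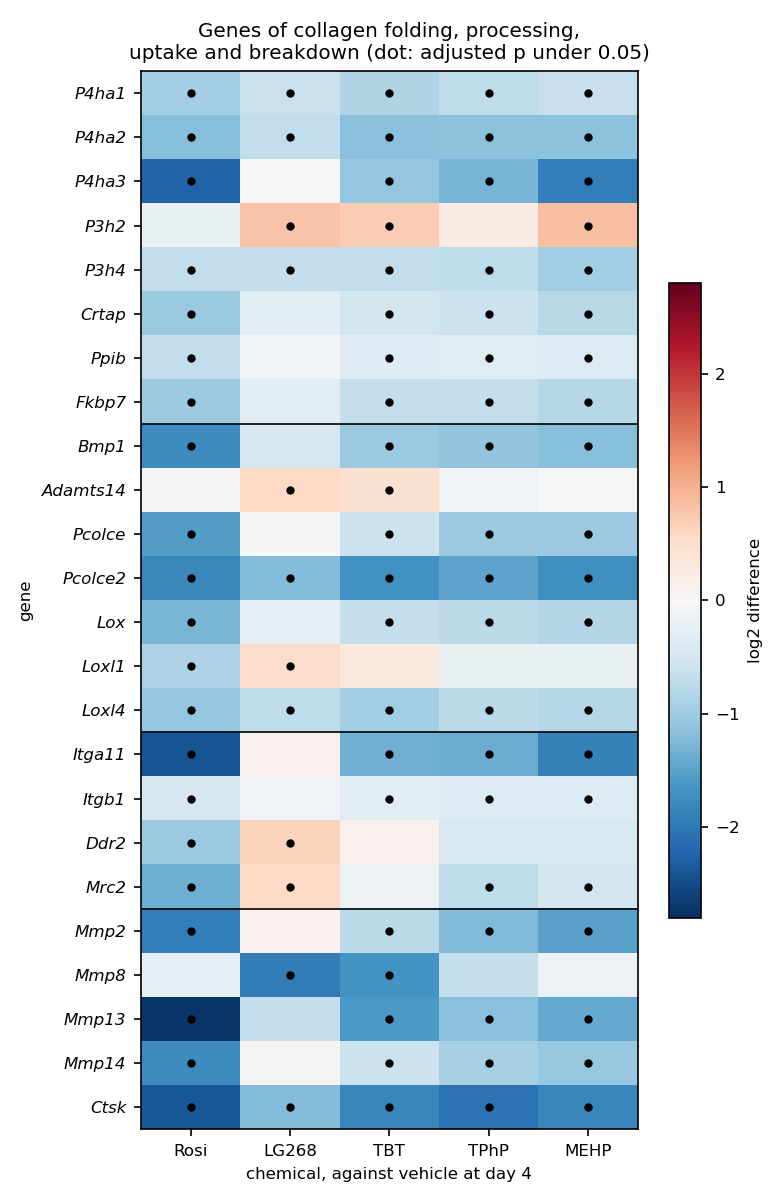
Heat map of the log2 difference from vehicle at day 4 (colour) for genes of collagen folding, processing, receptors and breakdown (rows, lines between lists), with a dot where limma's adjusted p was under 0.05. Most rows are blue with Rosi, TBT, TPhP and MEHP, down to -2.73 for Mmp13 with Rosi, and Ddr2 and Mrc2 are blue with Rosi and red with LG268.

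Markers of other cells moved with these groups. Of all genes tested at day 4, 27.7% fell with Rosi, 9.42% with TBT, 7.94% with TPhP, 11.7% with MEHP and 2.26% with LG268. The shares that rose were 21.3%, 10.6%, 11.0%, 12.1% and 4.21% in the same order. Of 9 osteoblast markers measured, 8 fell with Rosi at day 4, 7 with TBT, 6 with TPhP, 7 with MEHP and 2 with LG268 (4 with the pool as block), and their mean per array lay between 7.07 and 8.94 with vehicle and between 5.99 and 6.59 with Rosi. The vehicle array of pool 12 was the lowest of its group for this list too. Of 7 adipocyte markers 7 rose with Rosi, TPhP and MEHP each, 6 with TBT and 4 with LG268, the mean per array running from 6.89 to 8.38 with vehicle and from 10.39 to 10.66 with Rosi. Of 6 smooth muscle markers 5 fell with Rosi, TBT, TPhP and MEHP each and none with LG268, where 1 had an unadjusted p under 0.05 and the pool block called none. The mean of the 7 stromal progenitor markers per array lay between 9.30 and 10.21 with vehicle at day 4 and between 8.93 and 9.52 with Rosi. It lay between 10.51 and 10.67 with LG268, 10.36 and 10.44 with TBT, 9.88 and 10.16 with TPhP, and 9.96 and 10.09 with MEHP. With Rosi, Pdgfra averaged 7.97 against 9.64 with vehicle, and Lepr 9.06 against 8.92.

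Beside the rises of Col4a1, Col4a2 and Col15a1, 2 of 7 endothelial markers rose with Rosi, 3 with LG268 (6 with the pool as block), 6 with TBT and 4 with MEHP, while with TPhP none was called (0 at an unadjusted p under 0.05, and none with the pool as block). Of all genes tested, 21.3% rose with Rosi, 4.21% with LG268, 10.6% with TBT, 12.1% with MEHP and 11.0% with TPhP. The count with Rosi was thus close to the share over all genes. The mean of the 7 endothelial markers per array lay between 5.93 and 6.35 with vehicle, 5.42 and 7.21 with Rosi, and 6.96 and 7.37 with TBT. Tek, a defining marker, averaged 3.72 with vehicle, 3.68 with Rosi and 3.98 with TPhP, all under 4.05. It averaged 4.46 with LG268, 4.44 with TBT and 4.45 with MEHP. Every other endothelial marker averaged higher with Rosi than with vehicle, from Vwf (5.52 against 5.42) to Kdr (7.22 against 5.85). All 8 macrophage markers fell with Rosi, where 27.7% of all genes tested fell. The Rosi array of pool 15 stood at 11.09 for these markers, against 9.81 to 10.15 in the other pools. That array was also the lowest of its group for 29 of the 41 collagen genes, Col4a2 (8.70 against 9.45 and above) among them. The part of these cell types in the collagen differences was not tested.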

How the data were processed

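The authors' deposited table holds log2 values of 41345 probe sets on 52 Affymetrix Mouse Gene 2.0 ST arrays, from RNA labelled with the WT Plus kit per the labels' protocols. R 3.3.1 and the oligo package are named in the submitters' processing notes, and how the values were normalized is not stated there. Array medians lay between 3.97 and 4.15. Precision is limited by the 4 arrays a group. GEO's platform annotation gave 1 gene for 23521 probe sets, several for 1814 and none for 16010. Only probe sets with 1 gene were used, and each gene took the set with the highest mean, which left 22180 genes, of which 14911 had at least 4 arrays above the table's median.

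Group means of all 52 arrays were fitted with limma 3.58.1 in R 4.3.3 (lmFit and eBayes), with p-values adjusted by Benjamini-Hochberg over the 14911 genes in each of 22 comparisons and a threshold of 0.05. The script was tested on simulated data. The group-mean fit did not pair arrays by pool. Title numbers were read as pools and paired arrays only in the fits with the pool as block and in differences per pool. The labels describe pools as the experiments, and 45 of 52 arrays correlated best with arrays of their own number (41 of 52 same-pool pairs over 0.1, lowest -0.29). The pool as a block, only the arrays compared, cyclic loess, the mean of a gene's probe sets, no filter, a stricter filter (4 arrays above 6.34) and leaving out each pool were the alternatives. Leaving out the vehicle array of pool 12 at day 4, and the block on only the arrays compared, were added after seeing the data.

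The genes and lists were chosen with earlier results of these data known. Named genes beyond the collagens were up to 4 a list and comparison with the smallest adjusted p among those called. Plod3, Fkbp10, Pycr1, Adamts2, Loxl2 and Itga10 had no probe set with 1 gene, and Tll2 was under the filter. Promoter windows came from RefSeq's table (GRCm38.p6) and hold no entry matched here for Col1a1, Col2a1, Col4a3, Col5a2, Col9a3, Col12a1, Col14a1, Col22a1 and Col26a1.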

Additional observations from a re-analysis of the deposited data

Results flagged for a closer look

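A single array stood apart from the other 3 of its group in 14 of the 273 groups tested over 21 collagen genes, where chance gives about 1 in 20. The number flagged was thus close to what chance gives. In pool 12 the low arrays were those of Col1a1 with Rosi at day 1 (11.71, next lowest 12.09), Col6a1 with Rosi at day 1 (11.41), Col5a1 (9.23) and Col5a3 (6.77) with LG268 at day 1, and Col5a2 (9.67) and Col16a1 (5.70) in naive cells, and Col2a1 with vehicle at day 1 was high (8.75). In pool 15 Col1a2 with TBT at day 4 (11.05) and Col24a1 with MEHP at day 1 (4.54) were high, and Col4a2 with Rosi at day 4 was low (8.70). In pool 20 Col24a1 with Rosi (4.38) and Col16a1 with TBT (6.35), both at day 1, were high, and Col14a1 with TBT at day 4 was low (3.84). In pool 19 Col22a1 with Rosi at day 4 was high (4.63).

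The effect at day 4 differed from that at day 1, by limma's test of the difference, for 28 pairs of gene and chemical. Under Rosi the differences were -1.16 for Col1a1, -1.33 for Col1a2, -1.28 for Col3a1, -0.91 for Col5a2, -1.68 for Col11a1, -0.49 for Col24a1, -1.13 for Col8a1, -0.86 for Col14a1 and -0.57 for Col22a1, and 1.11 for Col5a3, 1.35 for Col4a1, 1.42 for Col4a2 and 1.89 for Col15a1. Under TBT the difference for Col1a1 was -1.05. Under TPhP they were -1.12 for Col1a1, -0.89 for Col1a2, -1.25 for Col2a1, -1.02 for Col3a1 and -0.67 for Col22a1. Under MEHP they were -1.36 for Col1a1, -1.06 for Col1a2, -1.26 for Col2a1, -0.85 for Col3a1, -0.99 for Col5a2, -1.62 for Col11a1, -1.29 for Col12a1, -0.74 for Col22a1 and 1.61 for Col15a1. These are log2 values over 4 pools, and the vehicle arrays are shared by all of them.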

How the results depend on the processing

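No collagen call changed sign under any alternative run. Of 167 calls of single collagen genes over 22 comparisons, 91 ended on only the arrays compared, 71 when the pool was added there as a block, 18 with no filter, 12 without the vehicle array of pool 12 at day 4, 6 of 166 with cyclic loess, 4 with the mean of a gene's probe sets, and none with the replicate block over all arrays or with the stricter filter (121 tested). Leaving out pool 12, 15, 19 or 20 ended 27, 43, 58 or 67. Counts of collagen genes called that moved by over 1.5 times were these. On only the arrays compared, they were 5 for vehicle day 1 against naive, 5 for vehicle day 4 against naive, 2 for vehicle day 4 against day 1, 9 for Rosi at day 1, and at day 4 0 for LG268, 6 for TBT, 1 for TPhP and 4 for MEHP. The change between days then gave 0 for TPhP and 3 for MEHP, and the comparison with Rosi 1 for TPhP and 0 for MEHP. With the block added on those arrays the counts were 4, 4, 5 and 15 in the same order, 1 for TBT at day 1, 1 for LG268, 8 for TBT and 2 for TPhP at day 4, and 3, 0 and 4 for the change with TBT, TPhP and MEHP. The replicate block over all arrays, which pairs by pool, gave 2 for vehicle day 1 against naive, 7, 14 and 14 for the change with TBT, TPhP and MEHP, and 5 for TPhP against Rosi; it ended no other call. The mean of probe sets gave 2 for vehicle day 1 against naive. With no filter the counts were 0 for vehicle day 1 against naive, 1 for Rosi at day 1 and 2 for MEHP against Rosi, and with the stricter filter 0 for vehicle day 1 against naive, 9 for vehicle day 4 against day 1, 2 for LG268 at day 4, 2 for the change with TBT and 2 for MEHP against Rosi. Without the vehicle array of pool 12, vehicle day 4 against day 1 gave 9, and the change gave 7 with TBT and 9 with TPhP. Leaving out 1 pool in turn gave 0 to 2 for vehicle day 1 against naive, 11 to 15 for vehicle day 4 against naive, 7 to 12 for vehicle day 4 against day 1 and 0 to 2 for Rosi at day 1. At day 4 it gave 17 to 21 for Rosi, 2 to 4 for LG268, 6 to 16 for TBT, 7 to 17 for TPhP and 12 to 17 for MEHP. The change between days ran from 8 to 14 with Rosi, 0 to 6 with TBT, 0 to 9 with TPhP and 0 to 11 with MEHP, and against Rosi from 13 to 17 for LG268, 6 to 12 for TBT, 2 to 2 for TPhP and 1 to 4 for MEHP. Fewer samples or genes enter the reduced fits; otherwise the cause was not tested. Of 116 calls of other pathway genes none changed sign. Of them 38 ended on only the arrays compared, 40 with the block added there, 13, 21, 35 and 44 without pool 12, 15, 19 and 20, and 13 without the vehicle array of pool 12. Genes near 4.05 are close to the background of the table.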
